A study of Mus musculus with 69 samples.

Results

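The nuclear genes of oxidative phosphorylation were followed by mRNA-seq and ATAC-seq in mouse embryonic stem cells (ESCs) whose histone variant H3.3 carries arginine in place of lysine 27. The set holds every row of the mRNA-seq count table whose gene symbol begins with Nduf, Uqcr, Sdha to Sdhd, Cox4 to Cox8 or Atp5, leaving out Atp5f1 and pseudogenes, which gave 92 of 16263 genes. By complex, 42 belonged to complex I, 8 to complex II, 8 to complex III, 18 to complex IV and 16 to complex V, as each gene is named, except that Ndufa4 and Ndufa4l2 were placed with complex IV, where their products act. Atp5sl was kept with complex V by its name, although its product is known to help assemble complex I. A name-based rule also takes in genes that encode no subunit. Of the 92 genes, 72 encode structural subunits, 14 encode assembly or related factors (such as Ndufaf1, Sdhaf2 and Cox7a2l) and 6 encode isoforms used mainly in particular tissues.

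The cells were J1 ESCs, a male line of the strain 129S4/SvJae. WT cells carried both H3.3 genes intact. In the mutants Mut18 and Mut43, both alleles of H3f3a and of H3f3b had been edited with CRISPR-Cas9 so that lysine 27 of H3.3 reads arginine (H3.3K27R). Each mutant line is 1 clone, and both were compared with 1 WT line. An effect of the edit and a difference picked up in culture therefore cannot be told apart, whether seen in 1 clone or shared by both. All lines were grown on feeder cells and kept without feeders for the last passages before harvest, and each line gave 2 biological replicates per assay. The edit exchanges an amino acid and leaves both genes transcribed, so counts per gene cannot check it.

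Oxidative phosphorylation passes electrons from NADH (through complex I) and from succinate (through complex II) to ubiquinone, then through complex III and cytochrome c to complex IV, which reduces oxygen. Complexes I, III and IV pump protons across the inner mitochondrial membrane, and complex V, the ATP synthase, lets them back to make ATP. Most subunits are encoded in the nucleus and a few in mitochondrial DNA, so assembly draws on both genomes, and the mitochondrial subunit genes were not analysed here. ESCs rely strongly on glycolysis and yet keep working mitochondria. Nuclear subunit genes are known for promoters that bind the factors NRF1, GABP (an ETS factor), YY1 and the estrogen-related receptors (ERR).

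Because ATAC-seq peaks were read at these promoters, the 250 bases upstream of the start are printed for 6 genes that cover complexes I, III, IV and V and that had risen, fallen or not been called in the mutants. They are from RefSeq, build GRCm38.p6, written in the direction of transcription, with matches to the motifs below, on either strand, in capitals. The match in Cox8a runs past the start, so that only its first part is seen.
Ndufv2 (chr17:66101560-66101809, - strand): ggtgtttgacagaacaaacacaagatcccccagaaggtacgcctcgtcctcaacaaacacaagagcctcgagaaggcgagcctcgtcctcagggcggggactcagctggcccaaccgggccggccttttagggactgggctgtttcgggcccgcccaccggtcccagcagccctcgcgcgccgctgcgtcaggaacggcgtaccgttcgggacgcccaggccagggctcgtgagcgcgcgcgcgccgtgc
Ndufaf1 (chr2:119662835-119663084, - strand): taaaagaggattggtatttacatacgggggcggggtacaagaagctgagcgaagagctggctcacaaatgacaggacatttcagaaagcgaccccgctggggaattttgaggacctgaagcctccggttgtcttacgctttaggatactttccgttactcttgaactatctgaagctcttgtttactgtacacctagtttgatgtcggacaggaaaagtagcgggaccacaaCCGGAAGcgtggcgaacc
Ndufaf4 (chr4:24897833-24898082, + strand): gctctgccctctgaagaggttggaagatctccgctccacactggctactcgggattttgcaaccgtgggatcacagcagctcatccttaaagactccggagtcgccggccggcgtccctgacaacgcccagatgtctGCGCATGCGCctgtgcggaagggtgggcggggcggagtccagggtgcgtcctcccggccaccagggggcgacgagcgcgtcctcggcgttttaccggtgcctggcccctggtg
Uqcr10 (chr11:4704345-4704594, - strand): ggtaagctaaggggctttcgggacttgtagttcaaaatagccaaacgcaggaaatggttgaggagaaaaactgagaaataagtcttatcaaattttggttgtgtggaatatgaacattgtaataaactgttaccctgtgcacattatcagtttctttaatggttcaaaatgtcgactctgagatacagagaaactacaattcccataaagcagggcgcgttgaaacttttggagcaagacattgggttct
Cox8a (chr19:7217617-7217866, - strand): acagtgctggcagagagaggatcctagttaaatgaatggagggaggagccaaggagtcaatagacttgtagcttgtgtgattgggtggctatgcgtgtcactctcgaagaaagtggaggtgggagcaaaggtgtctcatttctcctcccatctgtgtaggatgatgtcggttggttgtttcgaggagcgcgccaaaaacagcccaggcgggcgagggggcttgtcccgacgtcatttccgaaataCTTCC
Atp5g3 (chr2:73911327-73911576, - strand): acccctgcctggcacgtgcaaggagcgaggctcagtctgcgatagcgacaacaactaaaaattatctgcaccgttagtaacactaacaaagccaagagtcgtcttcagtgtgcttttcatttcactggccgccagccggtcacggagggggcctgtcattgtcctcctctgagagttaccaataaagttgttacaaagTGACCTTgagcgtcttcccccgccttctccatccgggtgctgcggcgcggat

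The motifs were searched on both strands in windows of 250 bases before to 50 after the start, which were found for 75 of the 92 genes. They were GCATGCGC for NRF1, CCGGAAG for ETS factors, AAGATGG for YY1 and AAGGTCA for ERR. NRF1 matches on opposite strands can overlap, as in Ndufaf4, where the capitals hold both. The NRF1 motif was in 12 of the 75 windows (16%), against 5.93% of the windows of tested genes and 3.05% of all windows in the table. The ETS motif was in 26.7%, against 18.9% of tested and 9.93% of all genes. For YY1 the shares were 13.3%, 8.09% and 7.28%, and for ERR they were 9.33%, 4.01% and 5.38%. Of the printed stretches, that of Ndufaf4 held the NRF1 motif, that of Ndufaf1 the ETS motif, that of Cox8a the beginning of an ETS match on the other strand and that of Atp5g3 the ERR motif, while those of Ndufv2 and Uqcr10 held none of these letters.

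The mRNA-seq libraries held 14992756 to 15143998 counts, and 14061 genes passed edgeR's expression filter. Replicates differed by more than counting error (chi-square per gene 1.81 to 3.06), and each library counted as 1 sample. Of 8 ESC marker genes, 7 were called higher in the mutants and Pou5f1 was called lower, and all 8 were expressed in every library. The test described below called 23.5% of all tested genes higher and 24.5% lower. Of 10 markers of feeder fibroblasts, 9 were tested, 7 of these were called lower and none higher, of which Col3a1, Postn, Dcn and Fbn1 were more than 2-fold lower. Their summed level was 4537 and 3220 TMM-normalized counts in WT cells, 2726 and 2676 in Mut18 cells and 2061 and 2076 in Mut43 cells. Lum was listed at 0 in 3 of the 6 libraries and the other 9 markers were above 0 in all, and the part of these markers in the results below was not tested. Since these are bulk samples, fewer cells of a type and less RNA per cell cannot be told apart.

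Most oxidative phosphorylation genes changed little in the mutants, and more of those that changed were higher than lower. Of the 92 genes, 90 were tested, and the quasi-likelihood test of edgeR, adjusted by Benjamini-Hochberg, called 24 higher and 5 lower in mutants (n = 4) than in WT (n = 2) at an adjusted p under 0.05, leaving 61 not called. In either direction this was 29 of 90 genes, against 48.0% of all tested genes. Over all tested genes the same rule called 23.5% higher and 24.5% lower, so the 24 higher genes lay near the background and the 5 lower genes below it. Only 1 gene, Ndufa4l2, was both called and past 2-fold, where 3.28% of all tested genes were called and more than 2-fold higher and 5.65% called and more than 2-fold lower. For 87 of the 90 genes (96.7%), the 95% confidence interval of the log2 fold change stayed within 2-fold. The same held for 79.2% of all tested genes. Among tested genes not placed on chromosome 11 whose mean reached 500 normalized counts, it held for 98.6%. The median log2 fold change was 0.07 (range -0.44 to 2.05), beside -0.004 for all tested genes, and it was 0.08 in Mut18 and 0.06 in Mut43. The genes are short, with a median exonic length of 810 bases, and once each library's trend with exonic length was removed, 18 genes were called higher and 9 lower, with a median of 0.03.

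**Figure D1:**
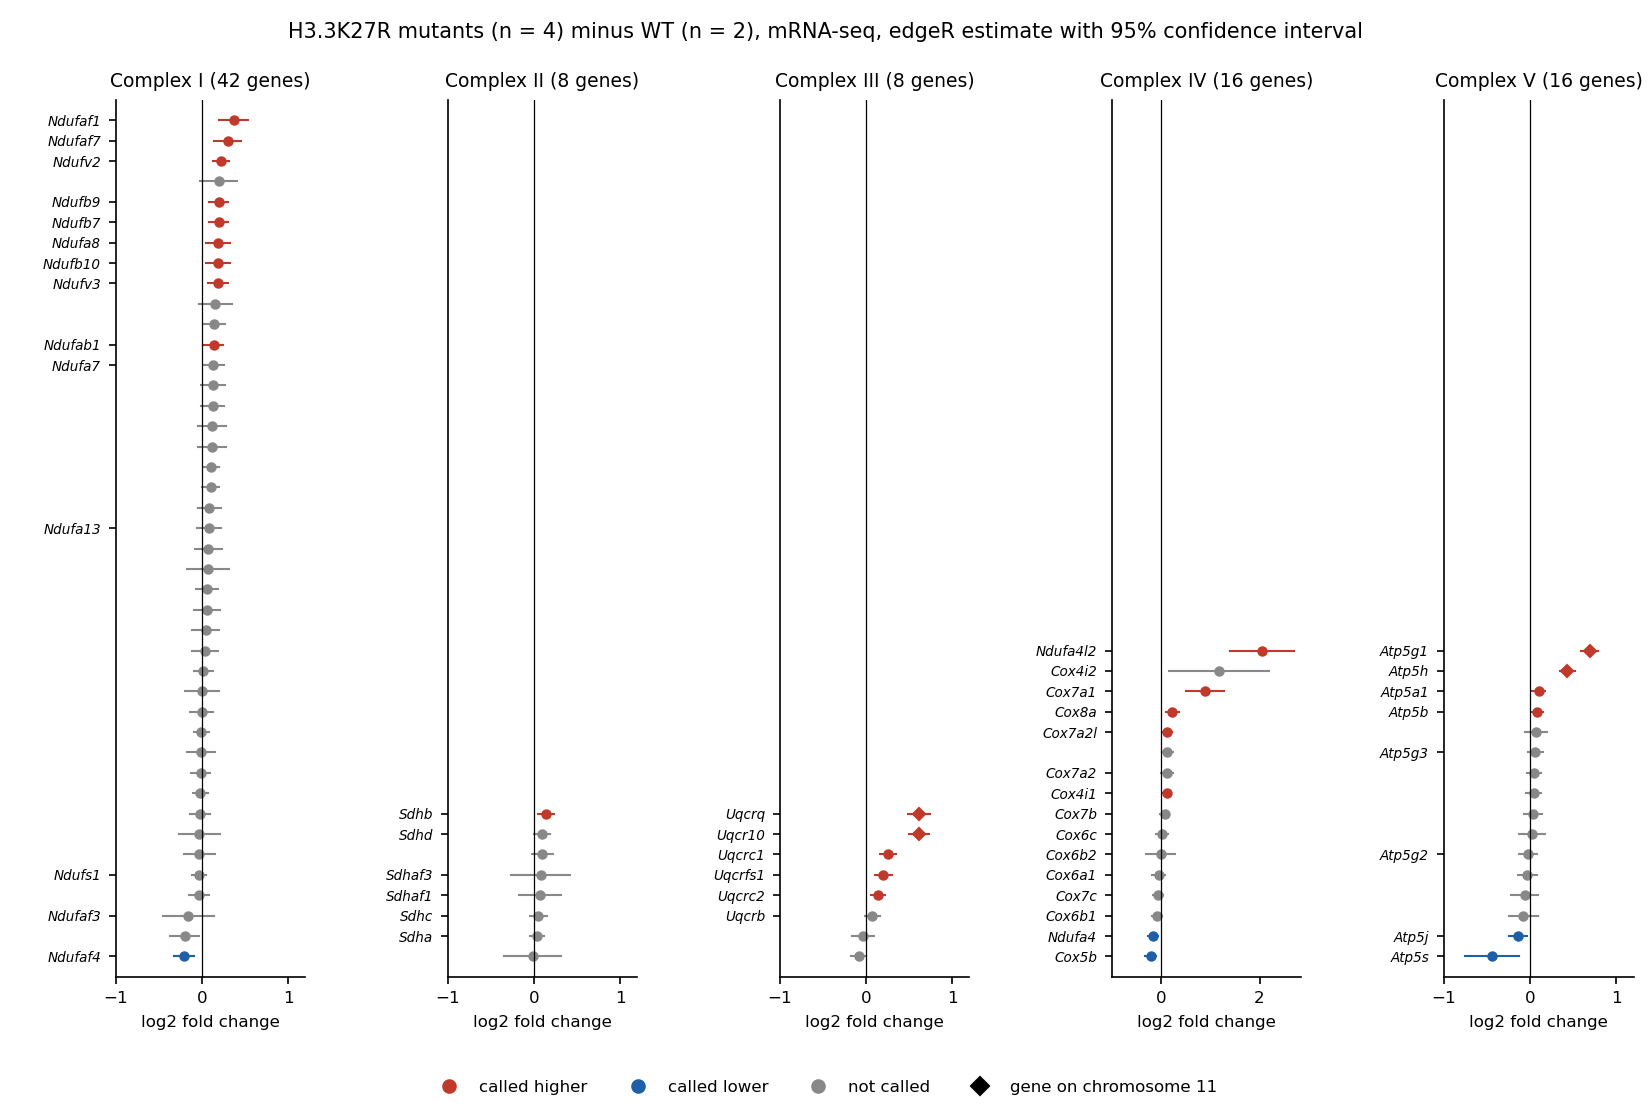
Each point is the log2 fold change of 1 of the 90 tested genes, mutants (n = 4) minus WT (n = 2), with its 95% confidence interval, sorted within complexes I to V; red marks genes called higher, blue genes called lower and grey genes not called, diamonds mark genes on chromosome 11, and names are given for genes that were called or chosen by the naming rule. Most points lie close to 0, Ndufa4l2 reaches 2.05, and all 4 diamonds are red, between 0.43 and 0.69; the axis of complex IV is wider than the others.

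The library medians show how small this shift was. Against the mean of the WT libraries, the median log2 ratio of the 90 genes was -0.04 and 0.04 in the WT libraries, 0.12 and 0.05 in those of Mut18, and 0.03 and 0.08 in those of Mut43. WT replicate 2 lay above Mut43 replicate 1, so the lines overlapped. All 92 genes together took 0.994% and 1.04% of counts in WT and 1.02% to 1.08% in the mutants, which also overlapped. WT replicate 1, with the lowest median, also held the highest summed level of fibroblast markers, and what this adds to the result was not tested. Without WT replicate 1, 13 genes were called higher and the median was 0.03. Without WT replicate 2, 1 gene was called lower and the median was 0.12.

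The 4 genes on chromosome 11 rose together. In normalized counts, Uqcr10, a small subunit of complex III, was at 872 and 973 in WT cells, 1413 and 1409 in Mut18 cells and 1318 and 1512 in Mut43 cells. Uqcrq, another small subunit of complex III, was at 903 and 961 in WT cells, 1593 and 1342 in Mut18 cells and 1408 and 1385 in Mut43 cells. For both genes every mutant library lay above both WT libraries. Atp5g1, which encodes the c subunit of the rotating ring of complex V, was at 2122 and 2297 in WT cells, 3646 and 3517 in Mut18 cells and 3386 and 3739 in Mut43 cells. Atp5h, a subunit of the peripheral stalk, was at 2256 and 2335 in WT cells, 3178 and 3079 in Mut18 cells and 3034 and 3113 in Mut43 cells. The groups did not overlap for these either, and of all tested genes 29.4% had every mutant library above both WT libraries. The log2 fold changes were 0.61 ± 0.06 (SE) for Uqcr10, 0.62 ± 0.06 for Uqcrq, 0.69 ± 0.05 for Atp5g1 and 0.43 ± 0.04 for Atp5h. Their adjusted p-values in edgeR's test with Benjamini-Hochberg adjustment were 2.5e-08, 4.9e-08, 3.7e-10 and 3.3e-08.

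Genes of chromosome 11 in general were higher in the mutants. Of its 1186 tested genes, 67.1% were called higher and 7.08% lower, with a median log2 fold change of 0.39, against 19.5% higher and 26.1% lower, with a median of -0.03, for genes not placed there. Among the chromosome 11 genes, Atp5h stood at the 57.9th percentile of log2 fold change, Uqcr10 at the 79.3rd, Uqcrq at the 79.8th and Atp5g1 at the 84.1st. The genes lie far apart on the chromosome, Uqcr10 at chr11:4701973-4704342, Uqcrq at chr11:53427922-53430831, Atp5g1 at chr11:96068852-96075670 and Atp5h at chr11:115415689-115419962 (GRCm38, all on the minus strand). Of the 86 tested genes elsewhere, 20 were called higher and 5 lower, with a median of 0.07. Tested genes elsewhere whose mean reached 500 normalized counts had a median of 0.01.

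**Figure D2:**
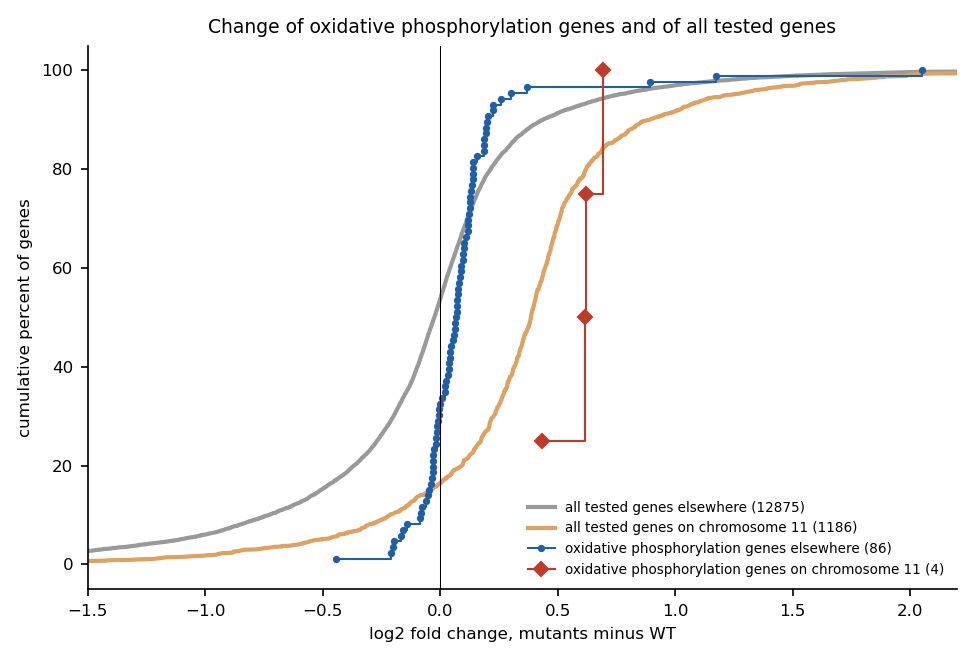
Cumulative percent of genes (vertical axis) by log2 fold change, mutants minus WT (horizontal axis), for the 4 oxidative phosphorylation genes on chromosome 11 (red diamonds), the 86 elsewhere (blue), all 1186 tested genes on chromosome 11 (orange) and all 12875 others (grey). The blue line is steeper than the grey one and crosses the middle at 0.07 rather than -0.03, and the red points lie within the upper part of the orange curve.

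Complex I, the largest of the complexes, accepts electrons from NADH. Of its 42 genes, 9 were called higher and 1 lower, with a median log2 fold change of 0.08 and a range of -0.20 to 0.37. The share over all tested genes, to be set beside the counts of each complex and class, was 23.5% higher and 24.5% lower. The 9 higher genes were thus not above it. Of the 7 core subunits, which hold the flavin and the iron-sulfur clusters, 1 was called higher. This was Ndufv2, an iron-sulfur subunit of the module that oxidizes NADH, at 1555 and 1656 in WT cells, 1963 and 1886 in Mut18 cells and 1828 and 1827 in Mut43 cells. All its mutant libraries lay above WT, and its log2 fold change was 0.22 ± 0.05 (SE, adjusted p = 0.00043, edgeR with Benjamini-Hochberg adjustment). Of the 28 accessory subunits, 6 were called higher (Ndufa8, Ndufab1, Ndufb7, Ndufb9, Ndufb10 and Ndufv3, by 0.14 to 0.20) and none lower. Ndufab1 is also the mitochondrial acyl carrier protein.

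The largest rises of complex I were in genes for assembly factors, which help to build it and are not part of the finished enzyme. Ndufaf1 was at 319 and 322 in WT cells, 445 and 372 in Mut18 cells and 432 and 409 in Mut43 cells. Ndufaf7, a methyltransferase, was at 343 and 360 in WT cells, 441 and 449 in Mut18 cells and 431 and 409 in Mut43 cells. Both were above WT in every mutant library, by 0.37 ± 0.08 and 0.30 ± 0.07 on the log2 scale (SE), with adjusted p-values of 0.00085 and 0.0021 in edgeR's test with Benjamini-Hochberg adjustment. Ndufaf4 moved the other way, from 846 and 890 in WT cells to 767 and 784 in Mut18 cells and 726 and 744 in Mut43 cells. Its log2 fold change was -0.20 ± 0.06 (SE, adjusted p = 0.0053, edgeR with Benjamini-Hochberg adjustment). Without WT replicate 2 this became -0.16, with an adjusted p of 0.083. The other 4 assembly factor genes were not called. One of them, Ndufaf3, had the lowest level of complex I in WT, at 78.3 normalized counts per kb of exon, and Ndufa7 had the highest, at 2398 per kb, with a log2 fold change of 0.14 that was not called (adjusted p = 0.063, edgeR with Benjamini-Hochberg adjustment).

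Complex II, succinate dehydrogenase, also works in the citric acid cycle and is the only complex encoded wholly in the nucleus. Of its 8 genes, 1 was called higher and none lower, and the median log2 fold change was 0.07. The called gene was Sdhb, the iron-sulfur subunit, at 1176 and 1163 in WT cells, 1305 and 1306 in Mut18 cells and 1270 and 1276 in Mut43 cells. The groups did not overlap, although the change was small, 0.14 ± 0.04 on the log2 scale (SE, adjusted p = 0.012, edgeR with Benjamini-Hochberg adjustment). Without WT replicate 1 or WT replicate 2 the adjusted p was 0.057 or 0.079 at log2 fold changes of 0.15 and 0.14, and with the length trend removed it was 0.061 at 0.10. Sdha, the flavoprotein that oxidizes succinate, was at 3717 and 3802 in WT and 3733 to 3902 in the mutants, which overlapped. The membrane anchors Sdhc and Sdhd were at 1210 and 1288 and at 1541 and 1620 in WT, and at 1261 to 1313 and 1610 to 1744 in the mutants. Their log2 fold changes, 0.04 for Sdha, 0.05 for Sdhc and 0.10 for Sdhd, were not called, and the 4 assembly factor genes Sdhaf1 to Sdhaf4 ranged from -0.01 to 0.10. Per kb of exon in WT, Sdha was the most abundant at 1296 and Sdhaf3 the least at 15.4 normalized counts.

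Complex III, which carries electrons from ubiquinol to cytochrome c, had the highest median of the complexes, 0.17. Of its 8 genes, 5 were called higher and none lower, against 23.5% and 24.5% of all tested genes. Among the 5, 2 are Uqcr10 and Uqcrq on chromosome 11. The 6 genes elsewhere had a median of 0.11, and 3 of them were called. For comparison, the median was 0.10 in complex IV and 0.08 in complex I. Uqcrc1, a core protein, was at 2552 and 2718 in WT cells, 3259 and 3117 in Mut18 cells and 2968 and 3260 in Mut43 cells. Uqcrc2, the partner core protein, was at 2606 and 2519 in WT and 2784 to 2850 in the mutants. Uqcrfs1, the Rieske iron-sulfur protein, was at 1220 and 1261 in WT cells, 1479 and 1410 in Mut18 cells and 1450 and 1367 in Mut43 cells. In each of these the mutant libraries lay above both WT libraries. The log2 fold changes were 0.26 ± 0.05, 0.14 ± 0.04 and 0.20 ± 0.05 (SE), with adjusted p-values of 0.00011, 0.0068 and 0.0013 in edgeR's test with Benjamini-Hochberg adjustment. Uqcrb, Uqcr11 and Uqcrh were not called, at 0.08, -0.04 and -0.09. Uqcrb had the highest level of complex III in WT at 4003 normalized counts per kb of exon, and Uqcrfs1 the lowest at 910 per kb. In summed counts, complex III took 0.0859% and 0.0890% of each WT library and 0.0954% to 0.101% of each mutant library, with no overlap. Uqcr10 and Uqcrq are part of this sum. Complex II, at 0.05785% and 0.05949% in WT and 0.05950% to 0.06046% in the mutants, did not overlap either. Its nearest WT and mutant libraries were almost equal, much closer than the WT libraries were to each other. Complex V, at 0.449% and 0.469% in WT and 0.471% to 0.487% in the mutants, was also apart, by less than the WT libraries differed. Atp5g1 and Atp5h on chromosome 11 are part of its sum, and the sum without them was not compared. All genes of the set outside chromosome 11 together took 0.952% and 0.992% in WT. In the mutants they took 0.963% to 1.02%, which overlapped. The shares of complexes I and IV overlapped.

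**Figure D3:**
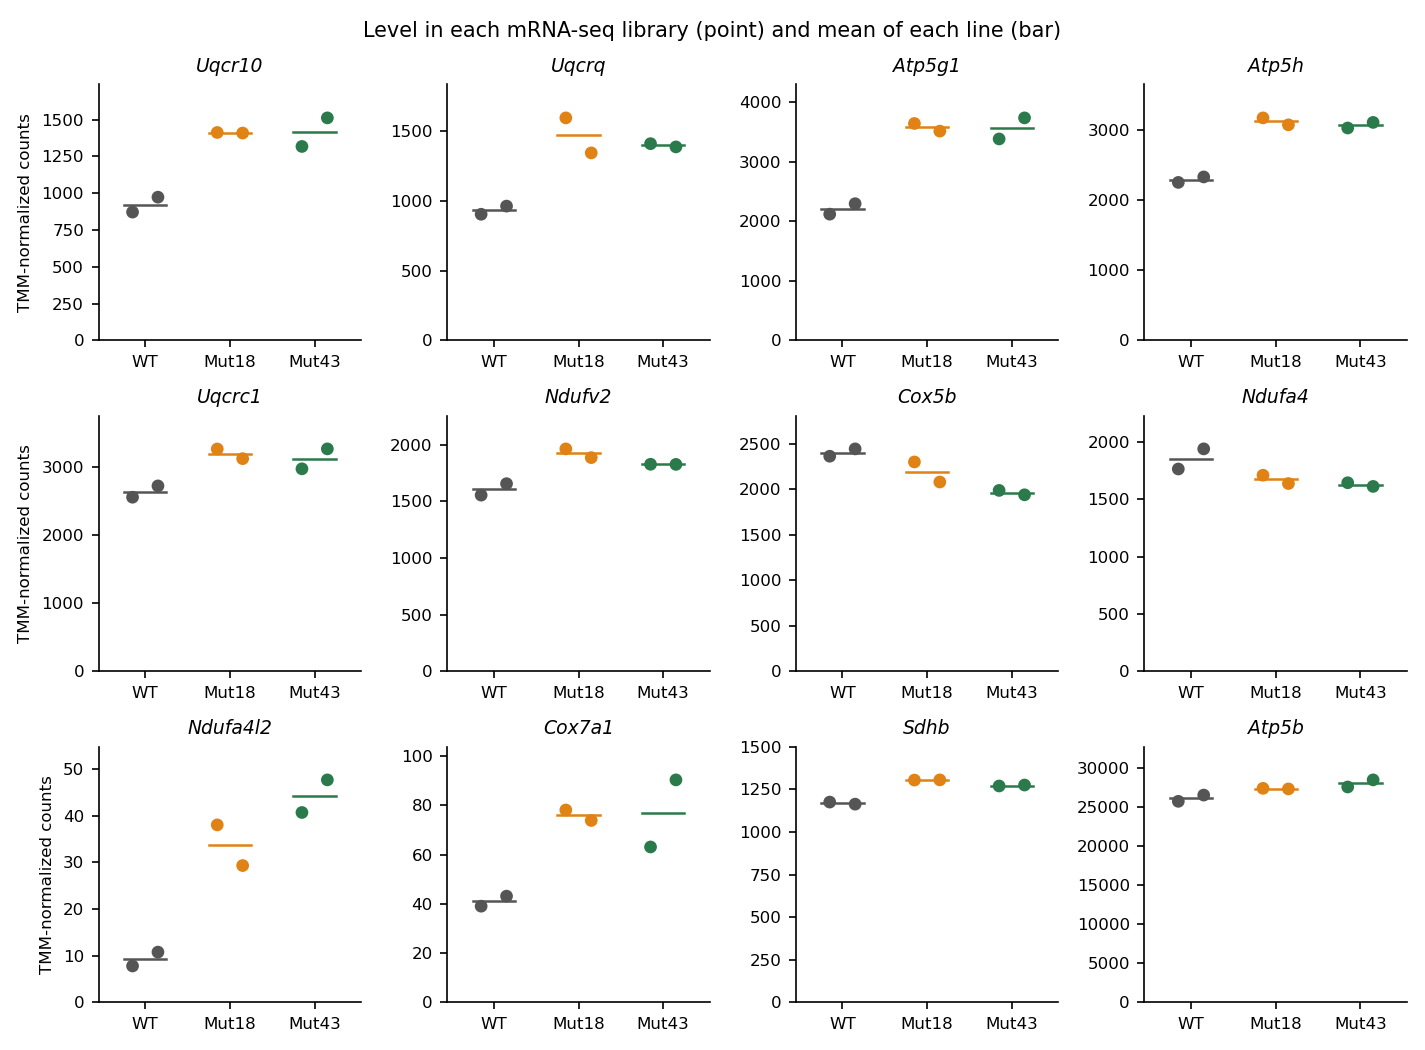
TMM-normalized counts (vertical axes, from 0) of 12 genes in each of the 6 mRNA-seq libraries, as points for WT, Mut18 and Mut43, with a bar at the mean of each line. The mutant points lie above the WT points in 10 of the panels and below them in those of Cox5b and Ndufa4. These 12 genes were picked from those called, so the separation follows from the choice. Every mutant library lay above both WT libraries in 31 of the 90 tested genes and below both in 9. The shares over all tested genes were 29.4% and 30.4%.

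Complex IV, cytochrome c oxidase, reduces oxygen, and several of its subunits come in isoforms. Of its 18 genes, 16 were tested, and 5 were called higher and 2 lower, against 23.5% and 24.5% of all tested genes. Its 11 widely used subunits split, with 2 higher, 2 lower and 7 not called, at a median of 0.02. Cox4i1, the common form of subunit 4, was at 4618 and 4776 in WT cells, 5223 and 5038 in Mut18 cells and 4952 and 5195 in Mut43 cells. Cox8a, the common form of subunit 8, was at 1845 and 1951 in WT cells, 2486 and 2075 in Mut18 cells and 2016 and 2293 in Mut43 cells. Both lay above WT in every mutant library, by 0.12 ± 0.04 and 0.22 ± 0.06 on the log2 scale (SE), with adjusted p-values of 0.016 and 0.0061 in edgeR's test with Benjamini-Hochberg adjustment. Without WT replicate 1 the adjusted p-values were 0.15 and 0.053, at log2 fold changes of 0.10 and 0.19, and DESeq2 gave Cox8a an adjusted p of 0.075. Cox7a2l, which helps complex IV to join complex III, had 0.12 ± 0.04 (SE, adjusted p = 0.021, edgeR with Benjamini-Hochberg adjustment). Its adjusted p was 0.063 without WT replicate 1 and 0.13 without WT replicate 2, at 0.14 and 0.12. With the length trend removed, Cox4i1 and Cox7a2l were at 0.07 and 0.08, both with an adjusted p of 0.11 by edgeR.

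Cox5b, a zinc-binding subunit, was lower in the mutants, at 2363 and 2443 in WT cells, 2300 and 2080 in Mut18 cells and 1987 and 1939 in Mut43 cells. Ndufa4, once assigned to complex I, was at 1764 and 1940 in WT cells, 1710 and 1638 in Mut18 cells and 1645 and 1612 in Mut43 cells. Every mutant library was below both WT libraries for each, as held for 30.4% of all tested genes. The log2 fold changes were -0.21 ± 0.05 and -0.17 ± 0.05 (SE), with adjusted p-values of 0.0029 and 0.0056 in edgeR's test with Benjamini-Hochberg adjustment. Without WT replicate 2, Ndufa4 was at -0.09 with an adjusted p of 0.24. The subunits Cox5a, Cox6a1, Cox6b1, Cox6c, Cox7a2, Cox7b and Cox7c were not called and lay between -0.08 and 0.12. With the length trend removed, Cox6b1 and Cox7c were called lower, and Cox6a1 was with the length and GC trends removed. Cox6b1 was also called lower without Mut18 replicate 1. In the other direction, Cox7a2 was called higher in 3 of 17 other settings, among them TMM factors from genes outside chromosome 11 and leaving out Mut43 replicate 1. Cox7b was called higher with the GC trend removed. Cox7c had the highest level of complex IV per kb of exon in WT, at 7818 normalized counts.

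The 4 tested isoforms used in particular tissues averaged at most 114 normalized counts in WT, where the median of all tested genes was 313.5. Per kb of exon, however, Cox6b2 was at 262 in WT, above the median of 118 for all tested genes. Ndufa4l2, a relative of Ndufa4 known to be induced by low oxygen, was at 7.81 and 10.8 normalized counts in WT cells, 38.0 and 29.3 in Mut18 cells and 40.7 and 47.7 in Mut43 cells. Cox7a1, the form of subunit 7a of heart and skeletal muscle, was at 39.1 and 43.1 in WT cells, 78.1 and 73.8 in Mut18 cells and 63.1 and 90.3 in Mut43 cells. For both genes the WT and mutant libraries were apart. The log2 fold changes were 2.05 (95% confidence interval 1.40 to 2.71, adjusted p = 1.6e-05) for Ndufa4l2 and 0.89 (0.50 to 1.28, adjusted p = 0.00053) for Cox7a1, by edgeR with Benjamini-Hochberg adjustment. Cox4i2, the form of subunit 4 found mainly in lung, was at 3.91 and 7.84 in WT and 6.11 to 17.0 in the mutants. Its log2 fold change of 1.17 was not called (adjusted p = 0.0503, edgeR with Benjamini-Hochberg adjustment). Over 16 other settings it ranged from 0.77 to 1.75, and the gene was called in 5 of them and not in the other 11. The lowest adjusted p by edgeR was 0.013, without Mut43 replicate 1, at 1.42. Cox6b2, the testis form of subunit 6b, did not move beyond its spread, at 99.6 and 128 in WT and 96.1 to 127 in the mutants. Cox7b2 (7.81 and 9.80 in WT, 6.07 to 10.0 in the mutants) and Cox8c (0 to 3.04 in all libraries) failed the expression filter.

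The common isoforms kept nearly all of the counts. Per kb of exon, Cox4i2 made up 0.0874% and 0.170% of subunit 4 in WT and 0.127% to 0.336% in the mutants, and Cox7a1 made up 4.53% and 4.63% of Cox7a1 and Cox7a2 together in WT and 6.93% to 8.87% in the mutants. Ndufa4l2 made up 0.218% and 0.273% of Ndufa4 and Ndufa4l2 together in WT and 0.874% to 1.44% in the mutants. For subunit 6b, the share of Cox6b2 was 4.89% and 6.24% in WT and 4.94% to 6.60% in the mutants, which overlapped.

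Complex V, the ATP synthase, held the most abundant transcript of all 92 genes. Of its 16 genes, 4 were called higher and 2 lower, against 23.5% and 24.5% of all tested genes. Among the 4, 2 are Atp5g1 and Atp5h on chromosome 11. The 14 genes elsewhere had a median of 0.03. Atp5b, the catalytic beta subunit of the F1 head, had the highest level per kb of exon, 13647 normalized counts in WT, and Atp5a1, the alpha subunit, had 5846. Atp5b was at 25749 and 26548 normalized counts in WT cells, 27414 and 27336 in Mut18 cells and 27584 and 28494 in Mut43 cells. Atp5a1 was at 14707 and 15369 in WT cells, 16144 and 15824 in Mut18 cells and 16112 and 16365 in Mut43 cells. Although no libraries overlapped, the changes were small, 0.08 ± 0.03 and 0.10 ± 0.04 on the log2 scale (SE), with adjusted p-values of 0.0497 and 0.025 in edgeR's test with Benjamini-Hochberg adjustment. The call of Atp5b was lost in 12 of 17 other settings, with adjusted p-values of up to 0.26 (without WT replicate 1, at 0.07). The call of Atp5a1 was lost without WT replicate 1 and without Mut43 replicate 2, at adjusted p-values of 0.23 and 0.067 and log2 fold changes of 0.07 and 0.09, and with upper quartile factors, at 0.058 and 0.08.

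Among the other F1 subunits, Atp5c1, Atp5d and Atp5e were not called, at 0.04, 0.07 and -0.08. Atp5j, coupling factor 6 of the peripheral stalk, was lower, at 1884 and 2045 in WT cells, 1811 and 1819 in Mut18 cells and 1665 and 1834 in Mut43 cells. Its log2 fold change was -0.14 ± 0.05 (SE, adjusted p = 0.021, edgeR with Benjamini-Hochberg adjustment), and the adjusted p was 0.35 without WT replicate 2 and 0.081 without Mut43 replicate 1, at -0.08 and -0.10, and 0.056 with TMM factors from genes outside chromosome 11, at -0.11. Atp5s, known as coupling factor B and not a subunit, fell from 101 and 98.0 in WT cells to 84.1 and 75.9 in Mut18 cells and 68.2 and 63.9 in Mut43 cells. This was the lowest log2 fold change of the 90 genes, -0.44 ± 0.15 (SE, adjusted p = 0.019, edgeR with Benjamini-Hochberg adjustment). Without WT replicate 1 or 2 its adjusted p was 0.090 or 0.059, at -0.42 and -0.46. Atp5s also had the lowest level of complex V, 64.4 normalized counts per kb of exon in WT.

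The c subunit is made from 3 genes that encode the same mature protein, and only Atp5g1 of these lies on chromosome 11. Atp5g2 was at 2615 and 2910 in WT and 2521 to 2875 in the mutants, and Atp5g3 at 2665 and 2700 in WT and 2726 to 2894 in the mutants. Neither was called, at log2 fold changes of -0.03 and 0.06. The summed counts of the 3 genes were 7401 and 7908 in WT and 8778 to 9414 in the mutants, with no overlap, and the share of Atp5g1 in these counts was 28.7% and 29.1% in WT and 38.3% to 40.2% in the mutants. Annotated transcripts of Atp5g1 run from 596 to 4715 bases, so its level was not compared with other genes per kb.

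The mutant clones did not differ detectably from each other in any of these genes. In a fit with 3 groups, 25 genes were called higher and 3 lower in Mut18 than in WT, where 20.3% and 21.0% of all tested genes were called, and 24 were called higher and 7 lower in Mut43, where 22.9% and 23.9% were called. Both comparisons share the WT libraries. DESeq2 called 14 higher and 0 lower in Mut18 and 13 higher and 3 lower in Mut43. Leaving out 1 library gave 12 to 26 higher and 0 to 3 lower in Mut18 (12 without Mut18 replicate 1, and 0 without WT replicate 2 or Mut18 replicate 2). In Mut43 it gave 9 to 26 higher and 3 to 7 lower (9 without WT replicate 1, 11 without Mut43 replicate 2, and 3 without WT replicate 2). Between Mut43 and Mut18, none of the 90 genes was called by edgeR (8 at an unadjusted p under 0.05) and none by DESeq2, where 46 of all tested genes (0.327%) were called by edgeR. The smallest adjusted p was 0.28, for Cox5b, which was lower in Mut43 by 0.16 on the log2 scale (95% confidence interval -0.26 to -0.05 for Mut43 minus Mut18). The 8 genes with an unadjusted p under 0.05 were near the background, which was 8.52% of all tested genes, and all 8 were lower in Mut43 than in Mut18.

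At the promoters, ATAC-seq peaks were present in nearly every gene and every line. Within 500 bp of the annotated start, 83 of the 92 genes (90.2%) had a peak in all 6 libraries, against 85.3% of 13441 tested genes with a protein-coding start, and 4 had none in any library. These 4 were Cox7b, Cox7b2, Sdhaf1 and Ndufa4l2. Ndufa4l2 had no promoter peak, and its transcript was called higher. Ndufa13 and Ndufs1 had peaks in both WT libraries and in 1 of the 4 mutant libraries, Cox6c in both WT libraries alone, Cox4i1 in 1 WT and 1 mutant library and Cox8c in 1 mutant library. The lists hold peaks past the authors' threshold only, so a missing peak does not measure closed chromatin.

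The fold enrichment of a promoter peak was divided by its library's median over tested genes with a peak in all 6 libraries. Over the 83 genes with all 6 peaks, the ratio of the mutant mean to the WT mean was 0.788 to 1.21, with a median of 1.01. The median ratio was 1.01 for the 22 genes whose mRNA was called higher, 0.994 for the 5 called lower and 1.01 for the 56 not called. On chromosome 11, the scaled enrichment of the Uqcr10 promoter peak was 0.781 and 1.01 in WT cells and 0.776 to 0.819 in the mutants, and that of Atp5h was 1.24 and 1.49 in WT cells and 1.37 to 1.52 in the mutants, so that both overlapped. At Uqcrq it was 0.859 and 0.925 in WT cells and 0.736 to 0.826 in the mutants, and at Atp5g1 it was 1.05 and 1.07 in WT cells and 0.915 to 1.04 in the mutants. In these latter genes every mutant library lay below both WT libraries, as in 7 of the 83 genes and in 10.6% of 11459 tested genes with all 6 peaks. The ratios for Uqcr10, Uqcrq, Atp5g1 and Atp5h were 0.893, 0.886, 0.923 and 1.06. These are values from separately called lists without read numbers and were not tested.

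**Figure D4:**
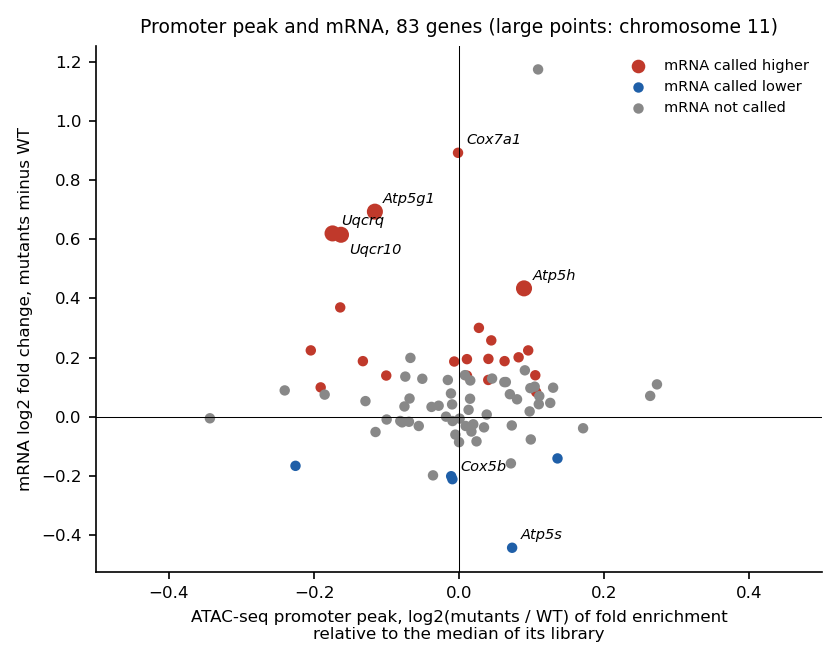
For the 83 genes with a promoter peak in all 6 ATAC-seq libraries, the horizontal axis gives the log2 ratio of mutants to WT of the peak's fold enrichment relative to its library's median, and the vertical axis the mRNA log2 fold change; red, blue and grey mark mRNA called higher, lower or not called, and large points are on chromosome 11. The promoter ratios lie between -0.34 and 0.27 on the log2 scale, and 3 of the 4 large points lie to the left of 0.

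Genes that work beside these complexes were followed as well. Beside the counts of these lists, 23.5% of all tested genes were called higher and 24.5% lower. Of 38 assembly factor genes with other names, 13 were called higher and 2 lower, with a median of 0.15. On chromosome 11 lie 8 of them, of which 7 were called higher, among them Cox11 (426 and 394 in WT, 558 to 599 in the mutants) and Sco1 (492 and 503 in WT, 633 to 702 in the mutants), which deliver copper to complex IV. Elsewhere 6 of 30 were called higher and 2 lower, the latter being Cox20 (-0.19) and Higd1a (-0.24). Of 18 genes for electron carriers and ubiquinone synthesis, 7 were called higher and 3 lower. Pdss2, which makes the side chain of ubiquinone, fell from 181 and 149 in WT to 98.7 to 119 in the mutants, a log2 fold change of -0.61 ± 0.12 (SE, adjusted p = 0.00032, edgeR with Benjamini-Hochberg adjustment), and Coq4 was at -0.38. Etfb and Coq9 were called higher, at 0.31 and 0.36, and Cycs, which encodes cytochrome c, was at 3385 and 3485 in WT and 3157 to 3566 in the mutants and was not called.

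Upstream in metabolism, 6 of 17 genes for pyruvate dehydrogenase and the citric acid cycle were called higher and 2 lower, with a median of 0.08. Ogdh, which lies on chromosome 11, was called higher at 0.50. Pdha1 and Dlat, of the pyruvate dehydrogenase complex, were called lower at -0.13 and -0.16. Of 17 regulators of mitochondrial biogenesis, 6 were called higher and 1 lower, with a median of 0.11. Tfam, which packages mitochondrial DNA, was at 1679 and 1634 in WT and 1861 to 1919 in the mutants (log2 fold change 0.20 ± 0.04, SE, adjusted p = 0.00053, edgeR with Benjamini-Hochberg adjustment), and Gabpa, the DNA-binding part of GABP, was at 0.17 and called higher. Mterf4 was called lower at -0.28. Nrf1, Yy1 and Esrra, named because they bind motifs searched above, were not called, at -0.12, -0.07 and 0.08. The share of genes called higher was 23.5% over all tested genes, and that of genes called lower 24.5%.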

How the data were processed

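mRNA-seq and ATAC-seq were analysed for WT, Mut18 and Mut43 ESCs, with 2 libraries per line and assay. The authors deposited raw read counts per gene symbol for mRNA-seq, and for ATAC-seq a peak list per library with the fold enrichment and the -log10 q-value of each peak, all above 6 and with replicates not pooled. The processing notes of the submitters name Bowtie2 2.3.4.2, STAR, SAMtools, DESeq2 and deepTools 3.3.0 with build mm10. The counting program, its annotation and the peak caller are not given in the sources used here, and neither is the strand setting, so reads of overlapping or near-identical genes may have been split. ChIP-seq samples were not analysed here.

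Counts were tested with edgeR 4.0.16 in R 4.3.3 (TMM normalization, filterByExpr with a minimum count of 10 and a total of 15, quasi-likelihood F-test, Benjamini-Hochberg adjustment over all 14061 genes tested). WT (n = 2) was compared with the 4 mutant libraries, and each clone in a fit with 3 groups. Normalized counts are counts divided by the effective (TMM-scaled) library size and multiplied by its mean over the 6 libraries. DESeq2 1.42.0 was an alternative. The biological replicates are taken as labelled, and p-values treat clones and replicates alike. Symbols were matched to GENCODE M21 directly for 15638 genes and by RefSeq synonym for 483, with 142 unmatched. A promoter peak overlapped the 500 bp on either side of the start by at least 1 bp. The test was checked on simulated data, in which it recovered 100 of 100 genes changed 2-fold and 61 of 100 changed 1.25-fold, with 7 false calls. The changed genes had a mean of at least 50 counts. Most genes were left unchanged there and the clones were given no difference, unlike the data, where 48.0% of tested genes were called.

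Genes were named by a rule: those past 2-fold, the 3 with the lowest p in each direction and complex, complex II subunits, isoform sets, the highest and lowest level per complex, those failing the filter and those lacking a promoter peak, and from other lists those past 2-fold and the 2 with the lowest p in each direction. Further genes were named after their values were seen, to complete a group. The members and the lists were chosen with earlier results of these data known. Replicate numbers did not pair the libraries, since deviations from the line means correlated at -0.012, 0.024 and 0.00095 between lines. Some genes of the sets are counted in the totals but are not reported here by name.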

Additional observations from a re-analysis of the deposited data

Results flagged for a closer look

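The 4 mutant libraries were treated as 1 group in 52 sets of values, for the 44 named genes and 8 summed shares of counts, and each set was examined for a library far from the other 3 by Dixon's criterion, which chance meets in about 1 in 20 groups, and 3 did so. Sdha was at 3733 normalized counts in Mut18 replicate 1, below the 3874 to 3902 of the other mutant libraries and within the WT range of 3717 to 3802. Atp5j was at 1665 in Mut43 replicate 1, below the 1811 to 1834 of the others, and its call was lost without that library. Cox8c was at 0 in Mut43 replicate 1 and at 3.00 to 3.04 in the others, a difference of 3 counts.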

How the results depend on the processing

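The counts of genes called higher or lower in the mutants were 24 and 5, and over 14 other settings they were 16 to 33 and 3 to 12. Lower genes numbered 9 with the length trend removed, alone or with a replicate block, 12 with the length and GC trends removed, an alternative chosen after seeing the data, and 3 at an adjusted p under 0.01. The median log2 fold change went from 0.07 to 0.030 with the length trend removed and to 0.031 with the block added to it. Genes called and more than 2-fold higher numbered 2 with median-of-ratios size factors, with TMM factors from genes outside chromosome 11 and with the replicate block, and 0 at a mean of at least 50 normalized counts, a filter that takes out Ndufa4l2. In Mut18, genes called higher numbered 14 by DESeq2 and 16 with the length trend removed, with the block added to it, and at an adjusted p under 0.01. Genes called lower in Mut18 numbered 0 with TMM outside chromosome 11, without an expression filter, by DESeq2 and at an adjusted p under 0.01, 6 with the length trend removed and 9 with the length and GC trends removed. In Mut43, genes called higher numbered 14 with upper quartile factors, 13 by DESeq2 and 10 at an adjusted p under 0.01. Genes called lower in Mut43 numbered 3 by DESeq2, 11 with the length trend removed, alone or with the block, 13 with the length and GC trends removed and 4 at an adjusted p under 0.01. The cause of these shifts was not tested.

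Leaving out 1 library in turn gave 13 to 28 higher (13 without WT replicate 1) and 1 to 6 lower (1 without WT replicate 2) in the mutants, 1 to 2 called and more than 2-fold higher, and a median of 0.033 to 0.12. It gave 12 to 26 higher and 0 to 3 lower in Mut18, 9 to 26 higher and 3 to 7 lower in Mut43, and 0 between the clones. With a line left at 1 library, its spread was taken from the others. With the replicate block, 24 were higher and 5 lower in the mutants, 24 and 3 in Mut18 and 20 and 7 in Mut43, and the replicate numbers share only a number. None of the 42 named and tested genes changed sign while called in these settings. Between 80 and 84 genes had a promoter peak in all libraries under the other windows, overlaps and thresholds. The 2 WT libraries limit what could be called, and more so for genes with fewer counts. DESeq2 gave Cox7a2l and Atp5s adjusted p-values of 0.056 and 0.081.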
